A study of Homo sapiens with 2 samples.

Results

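P-TEFb is the kinase that frees RNA polymerase II from its pause near the start of genes, and the 7SK complex is the store that keeps it inactive. The 7 genes described here encode the proteins of both. CDK9 is the kinase of P-TEFb, and CCNT1 and CCNT2 encode cyclins T1 and T2, either of which can pair with it. HEXIM1 and HEXIM2 encode inhibitors that block the kinase while they are bound to 7SK RNA. LARP7 binds the 3′ end of 7SK RNA and protects it, and MEPCE puts a methyl cap on its 5′ end and stays bound. When P-TEFb is released from the complex it phosphorylates the tail of RNA polymerase II and the pausing factors, and paused genes are then elongated.

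The members were all probes that the platform annotation gives to 1 of these 7 genes. There were 12 such probes among the 47323 on the array, with 1 probe each for HEXIM1, HEXIM2, MEPCE and CDK9, 2 for LARP7, and 3 each for CCNT1 and CCNT2. All 7 symbols are current in the RefSeq gene table of GRCh38.p14. In that table HEXIM1 and HEXIM2 are neighbors on the same chromosome with 1 gene listed between them, the antisense gene HEXIM2-AS1.

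RNA came from K562, an established BCR/ABL-positive chronic myeloid leukemia line, and was measured on 1 HumanHT-12v4 Expression BeadChip array for parental cells and 1 for nilotinibR cells. The resistant culture had been passaged in 0.1 µM nilotinib, an inhibitor of the ABL kinase, and then in 0.3 and 1 µM over 3 months until it grew routinely at 1 µM. Parental cells were kept in parallel without drug, so resistance and the presence of the drug cannot be told apart. Each condition has a single array, so none of the differences could be set against a spread between cultures, and no p-value is given. In such bulk RNA, fewer cells that express a gene and less of its RNA per cell cannot be told apart.

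The deposited intensities ran from 92.8 to 21126 on the parental and from 88.2 to 22044 on the nilotinibR array, with the background left in. A probe was kept when it exceeded a dim level on at least 1 array. The dim level was 120 on the parental and 119 on the nilotinibR array, set from the array's own dimmest probes, and 25358 probes were kept. The defining K562 genes HBG1, HBG2, HBE1 and HBZ, all fetal or embryonic globins, had intensities of at least 14344 on both arrays, near the top of the range. Of 6 markers of B, T, epithelial and fibroblast cells with a probe, EPCAM was bright at 1821 parental and 1399 nilotinibR, and none of the others exceeded 126 on either array. A list of red cell markers was chosen as genes whose level may move between the groups. Of 11 measured, 10 passed 1.5-fold upward in nilotinibR cells and none downward, beside 7.55% and 8.27% of all measured genes. The exception, GATA1, read 602 parental and 638 nilotinibR. The summed intensity of the 11 markers was 7316 on the parental and 37710 on the nilotinibR array. Their part in the results below was not tested.

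After normalization none of the 7 genes was 1.5-fold higher or lower in nilotinibR than in parental cells. The deposited intensities of the 2 probes for 7SK RNA itself were 4.11 and 4.95 times as high. Of the 12 member probes, 11 exceeded the dim level on both arrays and 1, for CCNT2, on neither. Below, a difference is the normalized log2 value of the nilotinibR array minus that of the parental array. Among the 11 measured probes they lay between -0.24 and 0.48, with a median of -0.07, and 3 were above and 8 below 0. Several of the 8 are probes of the same gene, so they do not count separately. For all kept probes, 12813 lay above and 12537 below 0, with a median of 0.00. Over all kept probes 6.76% were at least 1.5-fold higher, 7.2% at least 1.5-fold lower and 14% either. At that share 1.54 of 11 probes would pass. Within the brightness range of the members 9.41% of probes were higher, 8.58% lower and 18% either, and at that share 1.98 would pass. The count of 0 is therefore near the background and is not a result about these genes. The median size of the difference, without its sign, was 0.12 for the member probes and 0.21 for all kept probes.

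**Figure D1:**
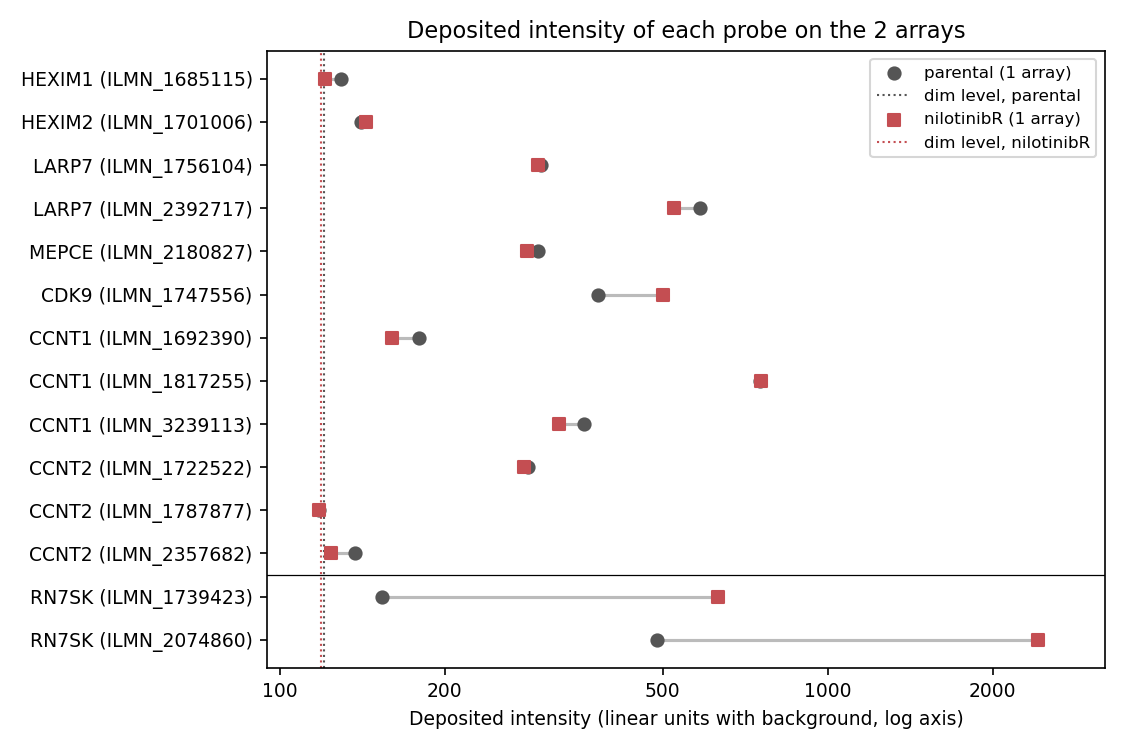
Deposited intensity (linear units with background, log axis) of the 12 member probes and the 2 RN7SK probes, with circles for the parental and squares for the nilotinibR array, 1 array each, and dotted lines at the 2 dim levels. The paired points of the members lie close together, with CDK9 the widest apart at 382 and 500, whereas the RN7SK points lie at 154 and 632 and at 488 and 2417.

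The kinase gene had the highest difference of the 7. The CDK9 probe (ILMN_1747556) read 382 on the parental and 500 on the nilotinibR array. Its normalized difference was 0.48, or 1.39-fold higher in nilotinibR cells, which is under the 1.5-fold threshold. Of all kept probes, 9.48% had a higher difference than this one, so a difference of this size was common on the array. Its difference exceeded that of the other 6 genes by 0.44 (HEXIM2) to 0.61 (HEXIM1) on the log2 scale. CDK9 has a single probe here, so no second probe checks the value.

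The cyclin genes gave 5 measured probes, with differences between -0.24 and 0.05. For CCNT1, which encodes the more widely studied partner of CDK9, probe ILMN_1817255 read 751 parental and 755 nilotinibR, a difference of 0.05. Probe ILMN_3239113 read 359 and 324, a difference of -0.15. Probe ILMN_1692390 read 180 and 160, a difference of -0.24. The 3 CCNT1 probes thus differed in sign and spread over 0.29, and their mean was -0.12. For CCNT2, which encodes the second cyclin T, probe ILMN_1722522 read 284 and 279, a difference of -0.03. Probe ILMN_2357682, annotated to a different transcript of the gene, read 137 and 124, a difference of -0.21. Probe ILMN_1787877 read 118 on both arrays, which was below the dim level, so it gives no difference. Both measured CCNT2 probes were thus lower on the nilotinibR array, the second with little signal over background on either array.

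The inhibitor genes had little signal over background on either array. The HEXIM1 probe (ILMN_1685115) read 129 on the parental and 121 on the nilotinibR array, against dim levels of 120 and 119. Its difference was -0.13, and a probe this close to the background can show a large increase but not a large decrease. HEXIM1 was first described as a gene induced when cells are driven to differentiate with hexamethylene bisacetamide, and its protein is the main inhibitor of P-TEFb in many cell types. The HEXIM2 probe (ILMN_1701006) read 141 and 144, a difference of 0.04. HEXIM2, a close relative, can take the place of HEXIM1 on 7SK RNA.

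The genes for the 2 proteins that stay on 7SK RNA were measured well above background. For LARP7, probe ILMN_2392717 read 586 parental and 524 nilotinibR, a difference of -0.12. The second LARP7 probe (ILMN_1756104), annotated to another transcript, read 300 and 296, a difference of -0.02. The MEPCE probe (ILMN_2180827) read 296 and 283, a difference of -0.07. All 3 probes were slightly lower on the nilotinibR array. Intensities of different probes depend on the probe sequence, so the genes cannot be ranked by level.

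Different probes of a gene were the only repeated measurement on these arrays. Over the 2581 genes with exactly 2 kept probes, the SD of a single probe's difference, estimated from the disagreement of the pair, was 0.27 on the log2 scale. This value includes real differences between transcripts and leaves out the spread between cultures. Of the 11 measured member probes, 10 had differences smaller than this SD, and CDK9 was the exception. The median size over all kept probes, 0.21, was also under this SD, so most probes on the array lay within it. Of all kept probes, 19.1% had a difference larger in size than that of CDK9. The count of 10 is therefore no result about these genes. The range between probes of 1 member was 0.10 for LARP7, 0.18 for CCNT2 and 0.29 for CCNT1.

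**Figure D2:**
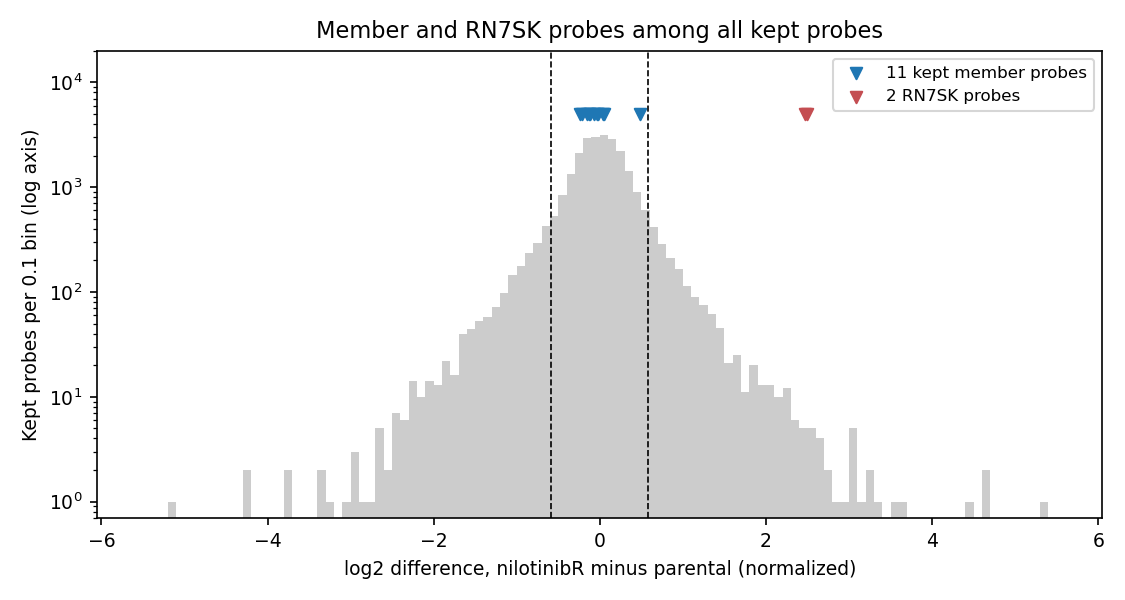
Normalized log2 difference (nilotinibR minus parental) of the 25358 kept probes as grey bars, counted per 0.1 bin on a log axis, with triangles for the 11 measured member probes and the 2 RN7SK probes and dashed lines at 1.5-fold. The member probes lie between the dashed lines, from -0.24 to 0.48, and the RN7SK probes at 2.47 and 2.50.

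The RNA on which these proteins assemble differed from them. RN7SK encodes 7SK RNA, a small nuclear RNA made by RNA polymerase III, and is not among the 7 members. Its probe ILMN_2074860 read 488 on the parental and 2417 on the nilotinibR array, a difference of 2.50, or 5.66-fold higher after normalization. Its probe ILMN_1739423 read 154 and 632, a difference of 2.47, or 5.54-fold higher after normalization, beside 4.11 in its deposited intensities. Both probes were thus higher on the nilotinibR array, by nearly the same amount under this normalization. Of the 25358 kept probes, 27 and 28 had a higher difference. They lay 2.57 and 2.54 above the median of the member probes, and 2.02 and 1.99 above CDK9. Under the other normalizations their differences stayed between 2.04 and 2.93, with the faint probe moving most. With the mode of each array's faint probes subtracted, the nilotinibR to parental ratio was 6.13 for ILMN_2074860 and 12.4 for ILMN_1739423. The 2 probes thus did not agree in size under every setting.

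The labeling kit copies RNA from poly(A) tails, which mature 7SK RNA lacks, so the share of its molecules that was labeled on each array is not known. The genome also holds many copies of the 7SK sequence, and which of them these probes would detect was not examined. Other small nuclear RNA probes were higher as well. Of 14 kept snRNA probes besides RN7SK, 7 passed 1.5-fold upward and none downward, beside 6.76% and 7.2% of all kept probes. The median of the 14 was 0.55, and the highest difference was 1.67 (RNU4-2, part of the spliceosome). The 7 were RNU1-1, RNU1-3, RNVU1-7, RNVU1-18, RNU4-1, RNU4-2 and RNU6-1. Several of these are copies or variants of the same RNA, so they do not count as 7 separate RNAs. Of 152 small nucleolar RNA probes, another class without poly(A) tails, 6 were higher and 21 lower at 1.5-fold, beside 6.76% and 7.2% of all kept probes, and the rest passed in neither direction. Their median was -0.18, and the highest was SNORD3D at 1.78. Of 27 kept probes of other noncoding classes, among them Y, vault and RNase P RNA, 2 were higher and 3 lower at 1.5-fold. The same 6.76% and 7.2% apply, and the median of the 27 was -0.09, with differences from -0.88 to 0.96. How far labeling contributes to the RN7SK difference was not tested.

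Among genes for other proteins that bind 7SK RNA or release P-TEFb from it, several were lower in nilotinibR cells. Of 10 such genes, 5 passed 1.5-fold downward and none upward, with a median of -0.62, beside 8.27% of the 13095 measured genes lower, 7.55% higher and a median of 0.00 over all genes. DDX21, a nucleolar RNA helicase that releases P-TEFb from 7SK, was 3.20-fold lower, with intensities of 2791 parental and 858 nilotinibR. SYNCRIP, an hnRNP protein found on 7SK RNA that has lost P-TEFb, was 2.87-fold lower, at 549 and 219. JMJD6, an oxygenase linked to the release of paused RNA polymerase II, was 1.68-fold lower. The RNA helicase gene DHX9 was 1.61-fold lower and HNRNPR, another hnRNP gene, 1.58-fold lower. The splicing factor gene SRSF2, at 1.49-fold lower, was just under the threshold and passed it with median or 75th percentile scaling and in the deposited intensities. HNRNPA2B1 had 4 probes that disagreed, from -0.95 to 0.40, around a mean of -0.02. Its brightest probe, at 5731 parental and 2876 nilotinibR, was the one at -0.95. The 2 probes of HNRNPA1 also disagreed, at -0.89 for the brighter and 0.02, around a mean of -0.43. These genes also serve ribosome production and splicing, and the list was chosen with earlier results of these arrays known. JMJD6 and DHX9 no longer passed without background correction or without the filter on dim probes, where the count was 3, nor in the deposited intensities. The count was 6 with either scaling and 7 with the brightest probe of each gene.

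Factors that recruit P-TEFb to genes were read against the 15.8% of all measured genes that passed in either direction. Of 9 genes of the super elongation complex measured, 1 was higher and none lower, with a median of -0.02. ELL2, an elongation factor in that complex, was 2.55-fold higher, with intensities of 177 parental and 378 nilotinibR. EAF2, which binds ELL proteins, had a difference of 0.45 and passed 1.5-fold only with an offset of 16 in the background correction. The scaffold genes AFF1 and AFF4, which hold P-TEFb in the complex, had differences of 0.00 and -0.16.

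Counts for the targets of P-TEFb at paused genes and for other elongation factors were near that share of 15.8% and are no result about these genes. Of 5 measured genes for the pausing factors DSIF and NELF, none was 1.5-fold higher or lower, with differences from -0.26 (NELFCD) to 0.36 (SUPT5H, the DSIF subunit that P-TEFb phosphorylates). Of 7 measured genes for the PAF1 complex and the elongation factors SUPT6H and IWS1, 1 was lower and none higher. That gene was LEO1, a PAF1 complex subunit, at 1.59-fold lower. It no longer passed without background correction, at -0.51, or in the deposited intensities, at -0.52. SKIC8, a subunit also known as WDR61, had a difference of -0.58, just under the threshold, and passed with an offset of 16, with median or 75th percentile scaling and in the deposited intensities.

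Kinases that act on the same RNA polymerase II tail gave the closest comparison in function. Of 8 measured genes for these kinases and their cyclins, none was 1.5-fold higher or lower, which is again near the share over all genes, with a median of -0.08 beside -0.07 for the 7 members. CDK7, the kinase of TFIIH, which acts at initiation, read 1033 parental and 977 nilotinibR, a difference of -0.03. CCNC, the cyclin of the Mediator kinase, was lowest at -0.48, and CDK19, a Mediator kinase, was highest at 0.08. CDK9, at 0.48, thus lay above each of these 8 genes.

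**Figure D3:**
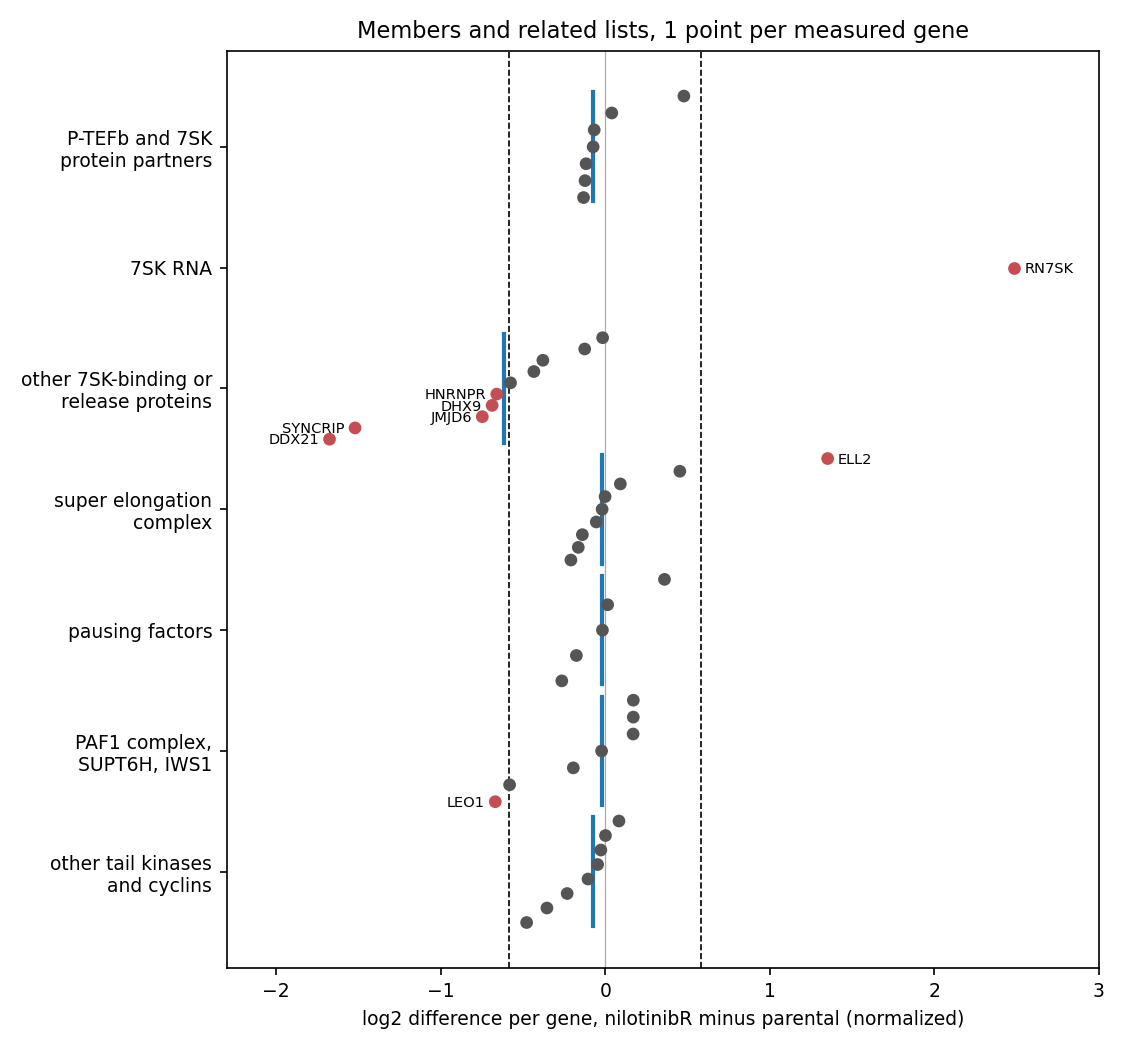
Normalized log2 difference (nilotinibR minus parental) of each measured gene of the 7 members, RN7SK and 5 related lists, with points averaged over the kept probes of a gene, blue bars at list medians, dashed lines at 1.5-fold, and genes past 1.5-fold in red. The members are centered at -0.07, RN7SK lies at 2.48, and the list of other 7SK-binding and release proteins is centered at -0.62.

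The members' values depended little on how the arrays were made comparable. Across 6 ways of normalizing, the CDK9 difference lay between 0.39 and 0.52, always above 0 and always under 1.5-fold. The HEXIM1 difference lay between -0.23 and -0.08, and the MEPCE difference between -0.11 and -0.06. The sign of CCNT1 probe ILMN_1817255 was not stable, from -0.04 to 0.05. The faint CCNT2 probe ILMN_2357682 ranged from -0.36 to -0.14. No member probe reached 1.5-fold in either direction under any of these settings. All of them left background in or added an offset, which pulls differences of faint probes toward 0. With the mode of each array's faint probes subtracted, the nilotinibR to parental ratio was 0.65 for HEXIM1 and 0.57 for CCNT2 probe ILMN_2357682. Both are past 1.5-fold lower but rest on little signal. The other measured member probes lay between 0.74 (CCNT1) and 1.45 (CDK9).

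**Figure D4:**
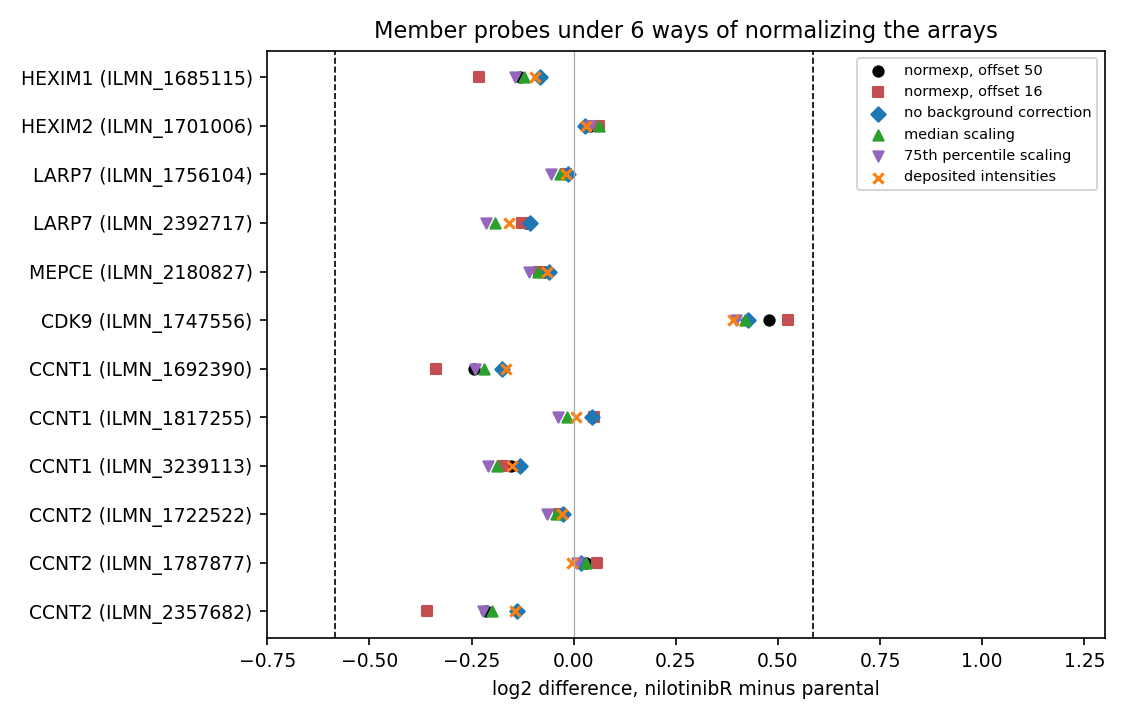
Log2 difference (nilotinibR minus parental) of the 12 member probes under 6 ways of normalizing the 2 arrays, 1 marker per setting, with dashed lines at 1.5-fold. All markers lie between the dashed lines, and CDK9 is the only gene whose markers all lie above 0.3.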

How the data were processed

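Total RNA of parental and nilotinibR K562 cells was amplified, labeled and hybridized by the authors to 1 BeadChip each. The methods name Genome Studio and robust multichip average. The deposited intensity values are linear, with background left in. Their unequal ranges show no quantile normalization as the last step, and the sources used here do not say which other steps they include. Of the scanner table, 4 columns (signals and detection p-values) were left out, since their names fit no sample. Background correction with normexp (offset 50) and quantile normalization were run in limma 3.58.1 (R 4.3.3), and log2 values were taken. The offset pulls differences of faint probes toward 0. The dim level was the mode of the faint probes plus the spread below it that 5% of background would exceed. Kept probes of a gene were averaged. The platform annotation named 30113 probes with 1 symbol, 8 with several and 17202 with none, and 30074 were matched to RefSeq. The 1.5-fold threshold follows the methods, whose 2-sample test cannot be run on single arrays. Members and lists were chosen with earlier results of these data known. Named were all member and RN7SK probes, SUPT5H and CDK7, and up to 4 genes per list and direction past 1.5-fold. HNRNPR, SRSF2, HNRNPA1, HNRNPA2B1, EAF2, AFF1, AFF4, NELFCD, SKIC8, CCNC, CDK19, GATA1, SNORD3D and the snRNA genes other than RN7SK were named after their values were seen. The steps were tested on simulated data. Precision is limited by the number of arrays. Some list members are not reported here.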

Additional observations from a re-analysis of the deposited data

How the results depend on the processing

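No paired analysis was possible because each condition has a single array, and leaving out a replicate was not possible either. The counts of member probes past 1.5-fold stayed at 0 in both directions under 5 other normalizations. All 5 left background in or added an offset. With the mode of each array's faint probes subtracted, HEXIM1 and CCNT2 probe ILMN_2357682 were past 1.5-fold lower, on little signal. The counts were also 0 under 2 other filters on dim probes and a 2-fold threshold, but these could hardly change them. A count of 0 at 1.5-fold must be 0 at 2-fold. Requiring signal on both arrays kept the same 11 probes, and dropping the filter added only the CCNT2 probe that was dim on both. Of 65 probe differences under another normalization, for the measured member and RN7SK probes, 62 moved by less than 0.27, the SD between partner probes. The exceptions were RN7SK probe ILMN_1739423 at 2.93 with an offset of 16, 2.06 without background correction and 2.04 in the deposited intensities. Over all kept probes, 2903 were higher and 2990 lower with an offset of 16, and 549 and 631 at 2-fold, beside 1713 and 1826 as reported. In the deposited intensities 1134 were higher and 1479 lower, with median scaling 1541 and 1997, and with 75th percentile scaling 1456 and 2116. The smaller offset widens differences of faint probes by construction. The background restricted to the members' brightness was chosen after seeing the data.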
